A study of Rattus norvegicus with 12 samples.

Results

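The order of events during butyrate exposure was followed in CC531, an established line of rat colon carcinoma cells, by setting 3 late arrays against 2 early ones. The late arrays held RNA of cells given 4.5 mM butyrate for 12, 16 and 24 h (late butyrate), and the early arrays RNA of cells given the same dose for 2 and 6 h (early butyrate). These 5 arrays were chosen by drug and hour alone, from 12 in the series. The other 7 were 2 arrays of untreated cells (2 and 24 h) and 5 of cells given 3 mM aspirin for 2, 6, 12, 16 and 24 h. All 12 shared the same line, and nothing in the labels says that any array came from a separate culture. There was 1 array per drug and hour, so the hours of a group stood in for replicates. The errors and p-values below therefore measure the spread between hours within groups, pooled over all 5 groups of the 12 arrays. True changes within a group are included, and the spread between cultures is not measured. In RNA of whole cultures, fewer cells of a type and less RNA per cell cannot be told apart.

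Bacteria of the large bowel make butyrate, a short-chain fatty acid, from fibre, and colon cells burn it as fuel. It also inhibits histone deacetylases, so histones become more acetylated and transcription of many genes shifts. In colon carcinoma cells grown with it, division is known to stop in the G1 phase, and markers of differentiation appear. DNA replication needs the MCM helicase, which is loaded in G1, nucleotide enzymes and the sliding clamp PCNA, and their genes are classic targets of E2F factors.

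Signal was the deposited intensity per probe set, on a linear scale on which the trimmed mean of every array was 1000. Values under a floor of 90.91 (log2 6.51) were raised to it and are written as below the floor. A filter on dim signal kept 6118 of 8740 probe sets, which cover 3647 genes. On the butyrate arrays 13.4 to 14.7% of tested values were at the floor from 6 h on, against 18.5% at 2 h, so the early pair was uneven in this respect. Correlations of log2 values between neighbouring butyrate hours lay at 0.961 to 0.980, and that of 2 with 24 h at 0.917. All 10 tested epithelial markers, such as keratins 8, 18 and 19 and Epcam, were above the floor on all 12 arrays. Their summed intensity was 73729 to 80902 on the early and 68271 to 78347 on the late arrays. Of the tested markers of other cell types, 4 of 9 of fibroblasts and smooth muscle, 3 of 8 of blood cells, 1 of 3 of endothelium and 1 of 7 of hepatocytes were above the floor throughout. Acta2, Col1a1 and Col1a2 were among the fibroblast markers that were, and the summed levels were 3942 to 4612 early and 3851 to 4815 late. Blood markers summed to 2140 to 2432 early and 2029 to 2261 late, endothelial ones to 457 to 495 and 471 to 574, and hepatocyte ones to 1337 to 1859 and 2014 to 3295. The part of these in the results was not tested.

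Late butyrate differed from early butyrate at 143 probe sets (limma, adjusted p under 0.05), which is 2.34% of those tested. Higher in late butyrate were 82 (1.34%), naming 62 genes, and lower were 61 (0.997%), naming 41 genes. The change was at least 2-fold at 121 of them (1.98%). At an unadjusted p under 0.05 there were 908 (14.8%). On 2011 probe sets (32.9%) all late arrays lay on one side of both early ones, 1147 above (18.7%) and 864 below (14.1%). The 143 all did so. Of the genes, 14 had more than 1 called probe set, and 0 genes were called in both directions. The same contrast in aspirin called 6 probe sets (0.0981%), 5 higher (0.0817%) and 1 lower (0.0163%), and 717 at an unadjusted p (11.7%). The median change over all tested probe sets was 0.04 on the log2 scale.

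Promoter windows of 4 genes are shown, because the results turn on their genes: those with the largest rise and the largest fall, and 2 helicase genes. They run from 250 bases before to 50 bases after the gene start, in the RefSeq assembly GRCr8, each read 5′ to 3′ on the strand of its gene. Capitals mark matches, on either strand, to 6 motifs. The GC box was searched as GGGCGG. The CCAAT box was searched by the letters of its name, and the E-box as CACGTG. The E2F motif was searched as TTTGGCGC or as TTTCGCGC. The cyclic AMP response element (CRE) was searched as TGACGTCA, and the amino acid response element as TTGCATCA. Map4k1 lies on the plus strand at chr1:93398319-93398618, Il33 on plus at chr1:237115323-237115622, Mcm5 on plus at chr19:13488563-13488862 and Mcm6 on minus at chr13:42404303-42404602. Mcm6 was picked after its values and matches were seen.
Map4k1: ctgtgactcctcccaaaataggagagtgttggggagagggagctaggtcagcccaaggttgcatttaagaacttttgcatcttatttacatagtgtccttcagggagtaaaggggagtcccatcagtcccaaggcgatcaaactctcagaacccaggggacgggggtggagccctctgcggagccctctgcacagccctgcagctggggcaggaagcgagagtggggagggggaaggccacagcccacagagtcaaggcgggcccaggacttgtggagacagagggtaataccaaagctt
Il33: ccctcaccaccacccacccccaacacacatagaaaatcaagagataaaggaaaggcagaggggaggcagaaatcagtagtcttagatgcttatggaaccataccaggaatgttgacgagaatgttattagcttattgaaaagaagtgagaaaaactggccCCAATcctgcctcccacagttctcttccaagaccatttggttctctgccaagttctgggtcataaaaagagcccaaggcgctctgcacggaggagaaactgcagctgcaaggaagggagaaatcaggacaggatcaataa
Mcm5: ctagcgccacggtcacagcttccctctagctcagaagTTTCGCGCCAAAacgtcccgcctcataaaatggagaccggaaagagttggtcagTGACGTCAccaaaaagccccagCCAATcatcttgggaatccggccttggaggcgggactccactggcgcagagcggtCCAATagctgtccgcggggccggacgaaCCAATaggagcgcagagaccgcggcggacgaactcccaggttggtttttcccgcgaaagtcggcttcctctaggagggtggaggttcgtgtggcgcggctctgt
Mcm6: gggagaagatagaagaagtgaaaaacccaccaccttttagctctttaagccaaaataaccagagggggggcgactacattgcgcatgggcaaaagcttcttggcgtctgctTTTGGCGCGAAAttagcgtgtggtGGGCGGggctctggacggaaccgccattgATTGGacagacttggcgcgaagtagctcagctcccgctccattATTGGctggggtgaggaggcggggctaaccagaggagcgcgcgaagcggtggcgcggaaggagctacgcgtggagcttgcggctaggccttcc
Map4k1 held none of these motifs and Il33 held 1 CCAAT. Mcm5 held 3 CCAAT, 1 CRE and a stretch in which both E2F forms overlap, one on each strand. Mcm6 held such a stretch too, beside 1 GC box and 2 CCAAT. An E2F motif was present in 2 of 40 windows of called falls (5%), these being Mcm5 and Mcm6, in 0 of 49 of called rises, in 1.29% of 3016 windows of tested genes and in 0.819% of all 27457 windows of that length. GC boxes were present in 72.5% of falls, 61.2% of rises, 60.7% of tested genes and 34.7% of all windows. For CCAAT the shares were 42.5%, 38.8%, 38% and 37.7%, and for the E-box 15%, 10.2%, 9.02% and 6.63%. A match is a match of letters only.

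The largest called fall was that of Il33, a cytokine stored in the nucleus of epithelial cells and released as an alarm signal. Its intensity was 11091 at 2 h, 6949.8 at 6 h, 2033 at 12 h, 713 at 16 h and 673 at 24 h of butyrate. Untreated cells gave 11108 at 2 h and 11553 at 24 h, and the aspirin arrays ran from 10163 to 11760.3. The level at 2 h of butyrate was thus within the range of arrays without butyrate, and each later butyrate array lay below the one before. Its late butyrate level fell by 3.15 ± 0.38 on the log2 scale (estimate ± SE, 3 against 2 arrays, adjusted p = 0.00166). Tspan8, a tetraspanin of the cell surface, gave 13583 at 2 h, 6325 at 6 h, 2215 at 12 h, 1930.3 at 16 h and 1902 at 24 h, against 8639.6 at 2 h and 10713 at 24 h without a drug. It fell by 2.20 ± 0.25 (adjusted p = 0.0011), and unlike Il33 it stayed level between 12 and 24 h. Pcsk6, a proprotein convertase, had most of its fall before 12 h: its intensities were 2273 at 2 h, 523 at 6 h, 289 at 12 h, 149.8 at 16 h and 109 at 24 h, a change of −2.70 ± 0.55, adjusted p = 0.0251. Calml4, a calmodulin-like protein, read 2578 at 2 h, 1142 at 6 h, 502 at 12 h, 233 at 16 h and 236 at 24 h (−2.51 ± 0.44, adjusted p = 0.014). Its late arrays did not overlap its early ones, and untreated cells gave 856 at 2 h and 1908 at 24 h. The fit was repeated 12 times, each time without 1 array, and the arrays named with such fits were left out one at a time. Tspan8 stayed called whichever single array was left out. Il33 lost the call only without butyrate 2 h (adjusted p = 0.0699). Calml4 stayed called without butyrate 6 and 12 h, aspirin 12, 16 and 24 h and untreated 2 and 24 h, with 0.0511 to 0.274 in the other 5 fits, the highest without butyrate 2 h. Pcsk6 stayed called without butyrate 6 and 12 h and aspirin 12 h, with 0.058 to 0.355 in the other 9 fits, the highest without butyrate 2 h.

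**Figure D1:**
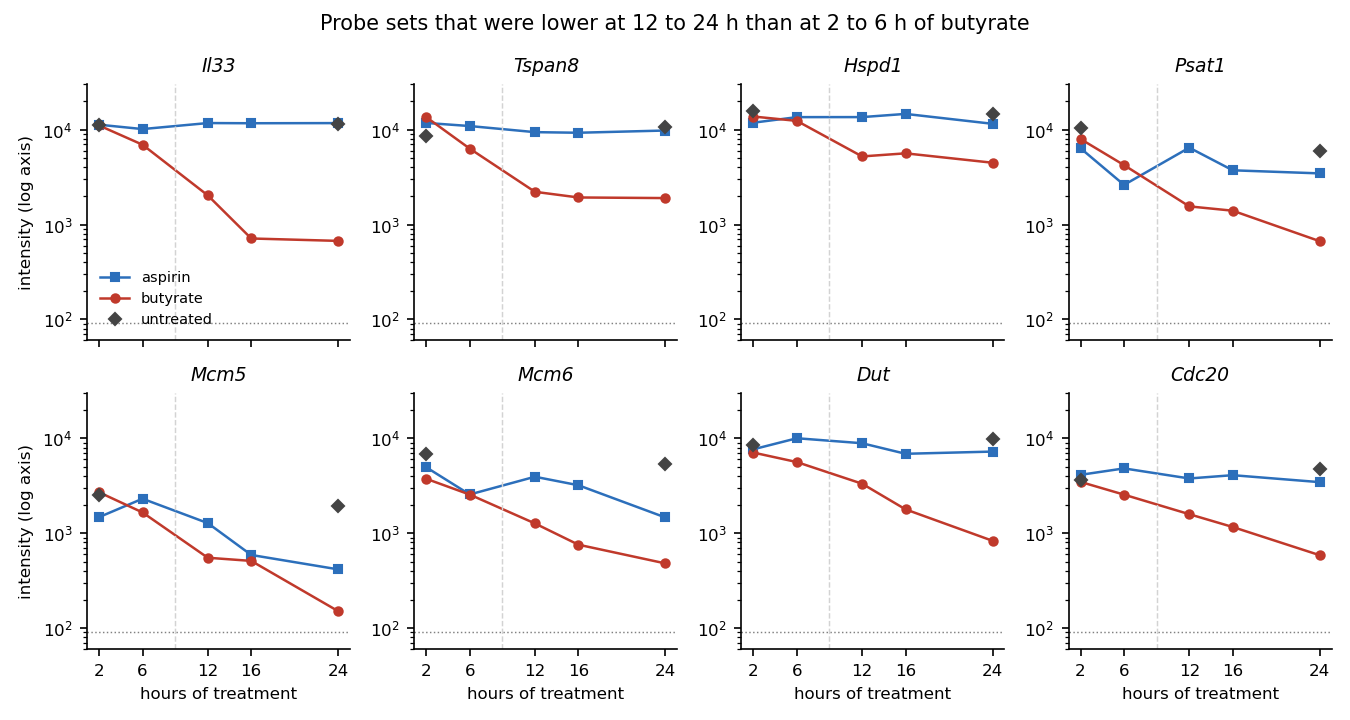
Intensity (log axis) against hours of treatment for 8 genes that were lower in late butyrate, each by its called probe set of largest change, with 1 array per point: butyrate (circles), aspirin (squares), untreated (diamonds), the floor as a dotted line and the boundary between early and late hours as a dashed line. Il33 went from 11091 at 2 h to 673 at 24 h of butyrate, while the aspirin arrays stayed between 10163 and 11760.3.

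Genes of DNA replication and the cell cycle were the list with the most falls. Of 46 measured, 9 fell and 0 rose (19.6%, against 1.1% of all 3647 genes lower and 1.23% higher, each by its brightest probe set). The median of the list was −0.80, with 40 of 46 lower, against 0.05 over all genes, and 28 had all late arrays below both early ones, as had 524 of all genes (14.4%). The opposite held for 3 members, and for 720 of all genes (19.7%). The list was written with earlier results of these data in view, so its direction is a description. Mcm5, a subunit of the replicative helicase, gave 2704 at 2 h, 1657 at 6 h, 552 at 12 h, 511 at 16 h and 151 at 24 h and fell by 2.60 ± 0.57 (adjusted p = 0.0342). Its largest step came between 16 and 24 h. Mcm6, of the same helicase, fell on all 3 of its probe sets, with changes of −2.0 ± 0.46 (0.0446), −1.96 ± 0.40 (0.0257) and −1.51 ± 0.31 (0.0262). The first of them read 3753 at 2 h, 2558 at 6 h, 1269 at 12 h, 757 at 16 h and 481 at 24 h, so each hour lay below the one before.

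Enzymes that keep uracil out of DNA also fell. Dut, which destroys dUTP, gave 7089 at 2 h, 5631 at 6 h, 3329.7 at 12 h, 1785 at 16 h and 832 at 24 h and fell by 1.89 ± 0.41 (adjusted p = 0.0336). Ung, which cuts uracil out of DNA, was 648 at 2 h, 313 at 6 h and below the floor at 12, 16 and 24 h, a change of −2.31 ± 0.41 (0.014) or more, since the late arrays were at the floor. Pcna, the sliding clamp of the polymerases, fell on both probe sets, with changes of −1.47 ± 0.26 (0.0134) and −1.01 ± 0.17 (0.00968). On the first it was 10344 at 2 h, 8957 at 6 h, 4805 at 12 h, 3776 at 16 h and 2300.1 at 24 h, and the late arrays again did not overlap the early ones. The genes Pcna, Ccne1, Cdk4, Brca1, Ccnb1 and Mcm7 were chosen after their values were seen.

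Regulators of the cycle and chromatin genes were also among the falls. Cdc20, which activates the ligase that ends mitosis, read 3477 at 2 h, 2552 at 6 h, 1588 at 12 h, 1164 at 16 h and 587 at 24 h (−1.54 ± 0.34, adjusted p = 0.0336). Ccne1, for cyclin E1, fell on 1 of 2 probe sets with a change of −1.28 ± 0.26 (0.0254), while the other gave −0.41 (0.58). Cdk4, the kinase partner of D cyclins, fell by 0.64 ± 0.13 (0.028), from 23295 at 2 h to 11873 at 24 h. Of 16 histone and chromatin genes 2 fell (12.5%, against 1.1% of all genes) and 0 rose. H2az1, a histone H2A variant, had a change of −1.37 ± 0.25 (0.014). Hmgb1, an abundant DNA-bending protein that stands in both lists, had a change of −1.19 ± 0.19 (0.00831). Brca1, a DNA repair gene, counts among the 9 at 147 at 2 h, 158 at 6 h and below the floor at 12, 16 and 24 h, with both untreated arrays below the floor. Among members that did not pass, mitotic cyclin Ccnb1 gave −1.44 and −1.50 (adjusted p = 0.0555 and 0.0774), the helicase subunit Mcm7 −1.08 (0.0793) and cyclin D1, Ccnd1, −0.98 (0.119) on its brightest probe set.

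Few of these calls held when 1 array was left out. Hmgb1 lost the call only without butyrate 2 h (adjusted p = 0.125). Ung was lost without butyrate 2, 16 and 24 h (0.241, 0.0723, 0.0779). Mcm5 stayed called without butyrate 12 h and aspirin 12 h, with 0.0622 to 0.453 in the other 10 fits, the highest without butyrate 2 h. Mcm6 on its first probe set stayed called without butyrate 12 h and aspirin 24 h, with 0.0616 to 0.526 in the other 10 fits, the highest without butyrate 2 h. Dut stayed called without butyrate 12 h, with 0.0651 to 0.421 in the other 11 fits, the highest without butyrate 2 h. Cdc20 stayed called without butyrate 12 h, with 0.057 to 0.435 in the other 11 fits, the highest without butyrate 2 h. Brca1 was lost without butyrate 2 and 16 h (0.0757, 0.0601).

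Pcna on its first probe set was lost without butyrate 2 and 16 h and untreated 2 and 24 h (0.241, 0.0633, 0.052, 0.0524). Pcna on its other probe set was lost without butyrate 2 and 16 h (0.125, 0.0551). Mcm6 on its second probe set stayed called without butyrate 12 h and aspirin 12 h, with 0.0533 to 0.358 in the other 10 fits, the highest without butyrate 2 h. Mcm6 on its remaining probe set stayed called without butyrate 12 h and aspirin 12 h, with 0.058 to 0.306 in the other 10 fits, the highest without butyrate 2 h. Ccne1 stayed called without butyrate 6 and 12 h, aspirin 12 and 24 h and untreated 2 h, with 0.0508 to 0.355 in the other 7 fits, the highest without butyrate 2 h. Cdk4 stayed called without butyrate 6 and 12 h and aspirin 12 h, with 0.0532 to 0.355 in the other 9 fits, the highest without butyrate 2 h. H2az1 stayed called without butyrate 6 and 12 h and aspirin 12, 16 and 24 h, with 0.0511 to 0.279 in the other 7 fits, the highest without butyrate 2 h. The count of 9 for the whole list was 0 without butyrate 2 h, 7 without butyrate 6 h, 16, 1 and 3 without butyrate 12, 16 and 24 h, 3, 3, 7, 3 and 4 without aspirin 2, 6, 12, 16 and 24 h, and 4 and 3 without untreated 2 and 24 h. Its median stayed between −0.95 and −0.58 in these 12 fits. On the butyrate arrays alone the count was 0, and with a slope over log2 hours it was 20.

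Both measured enzymes at the start of serine synthesis fell. Phgdh, the first enzyme of that pathway, fell on all 3 probe sets, with changes of −2.13 ± 0.38 (adjusted p = 0.014), −1.86 ± 0.29 (0.00742) and −1.42 ± 0.21 (0.00589). The brightest, the last of these, read 9632 at 2 h, 6438 at 6 h, 3443 at 12 h, 2966 at 16 h and 2487 at 24 h. Psat1, the next enzyme, fell on 2 of 3 probe sets, with changes of −2.36 ± 0.47 (0.0232) and −2.23 ± 0.28 (0.00218). On the second it gave 13681 at 2 h, 7717 at 6 h, 2657 at 12 h, 2769 at 16 h and 1441 at 24 h, against 11977 at 2 h and 11313 at 24 h without a drug. Asns, which makes asparagine, fell by 0.99 ± 0.22 (0.0331). With these 3, the list of amino acid and unfolded protein response genes had 3 of 20 lower (15%, against 1.1% of all genes) and 0 higher. Its median was −0.28. Its stress factors Ddit3 (−0.25, adjusted p = 0.85) and Atf3 (0.14, 0.938) did not pass. Phgdh on its brightest probe set, Phgdh on the next and Psat1 on the second lost the call only without butyrate 2 h (adjusted p = 0.0948, 0.146 and 0.0724). Phgdh on the remaining probe set stayed called without butyrate 6 and 12 h, aspirin 12, 16 and 24 h and untreated 2 and 24 h, with 0.0511 to 0.283 in the other 5 fits, the highest without butyrate 2 h. Psat1 on the first stayed called without butyrate 6 and 12 h and aspirin 12 h, with 0.0511 to 0.397 in the other 9 fits, the highest without butyrate 2 h. Asns stayed called without butyrate 6 and 12 h and aspirin 12 h, with 0.0513 to 0.361 in the other 9 fits, the highest without butyrate 2 h.

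Hspd1, the chaperonin that folds proteins inside mitochondria, gave 13785 at 2 h, 12399 at 6 h, 5229.6 at 12 h, 5638 at 16 h and 4488 at 24 h, with early and untreated arrays close together (15756 at 2 h and 14706 at 24 h untreated). It fell by 1.36 ± 0.15 (adjusted p = 0.000903) there, and with a change of −0.92 ± 0.20 (0.0352) on its other probe set. Ptpmt1, a phosphatase of cardiolipin synthesis, fell by 1.93 ± 0.35 (0.0147), with most of the loss before 12 h (2428 at 2 h, 795 at 6 h, 413 at 12 h, 338 at 16 h and 345 at 24 h). Prdx3, a mitochondrial peroxiredoxin, fell on both probe sets, with changes of −1.11 ± 0.25 (0.0396) and −1.0 ± 0.21 (0.026). Slc25a5, which exchanges ADP for ATP, fell by 0.67 ± 0.12 (0.0166). The list of oxidative phosphorylation genes had 0 of 32 called (all genes: 1.23% higher and 1.1% lower) and a median of −0.11. Hspd1 on its first probe set stayed called whichever single array was left out. Hspd1 on its other stayed called without butyrate 12 h, with 0.0617 to 0.397 in the other 11 fits, the highest without butyrate 2 h. Ptpmt1 stayed called without butyrate 6 and 12 h and aspirin 12, 16 and 24 h, with 0.0511 to 0.0938 in the other 7 fits, the highest without butyrate 24 h. Prdx3 on its first probe set stayed called without butyrate 6 h and aspirin 12 and 24 h, with 0.0707 to 0.532 in the other 9 fits, the highest without butyrate 2 h. Prdx3 on its other stayed called without butyrate 6 and 12 h and aspirin 12, 16 and 24 h, with 0.0511 to 0.354 in the other 7 fits, the highest without butyrate 2 h. Slc25a5 was lost without butyrate 2, 16 and 24 h (0.241, 0.087, 0.0718).

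Psmb8, a subunit of the immunoproteasome, gave 3459 at 2 h, 2577 at 6 h, 1373 at 12 h, 868 at 16 h and 545 at 24 h (−1.79 ± 0.32, adjusted p = 0.014). Fosl1, the AP-1 factor Fra-1, was the only called one of 24 immediate-early factors (4.17%, against 1.1% of all genes lower). It gave 1872 at 2 h, 749.8 at 6 h, 463 at 12 h, 383 at 16 h and 358 at 24 h (−1.57 ± 0.36, adjusted p = 0.04). Untreated cells gave 3345 at 2 h and 1923 at 24 h. Gpx1, a glutathione peroxidase also chosen after its values were seen, fell on both probe sets (−0.84 ± 0.17, 0.0262, and −0.81 ± 0.18, 0.0385). Of 47 genes of glutathione and NRF2, 3 fell by their brightest probe set (Gpx1, Prdx3 and Ugdh) and 0 rose (6.38% lower, against 1.1% of all genes). In that list 23 were higher and 23 lower, with a median of 0.00. Profilin, Pfn1, fell by 0.82 ± 0.15 (0.014). Psmb8 stayed called without butyrate 6 and 12 h, aspirin 12, 16 and 24 h and untreated 2 and 24 h, with 0.0504 to 0.266 in the other 5 fits, the highest without butyrate 2 h. Fosl1 stayed called without butyrate 6 h, with 0.0612 to 0.516 in the other 11 fits, the highest without butyrate 2 h. Gpx1 on its first probe set stayed called without butyrate 6 and 12 h, aspirin 12 and 24 h and untreated 2 and 24 h, with 0.0511 to 0.263 in the other 6 fits, the highest without butyrate 2 h. Gpx1 on its other stayed called without butyrate 12 h and aspirin 2 and 6 h, with 0.0557 to 0.331 in the other 9 fits, the highest without butyrate 2 h. Pfn1 was lost without butyrate 2, 16 and 24 h (0.252, 0.0678, 0.0838).

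Map4k1, a kinase upstream of JNK that is best known in blood cells, had the largest called rise. Its intensity was below the floor at 2 h, 357 at 6 h, 2172 at 12 h, 2685 at 16 h and 4807 at 24 h of butyrate, and it was below the floor on both untreated arrays. The rise was at least 4.08 ± 0.61 (adjusted p = 0.00637), and its other probe set rose by 2.74 ± 0.39 (0.00553). Lgals1, for galectin-1, a lectin that binds cell-surface sugars, gave 494 at 2 h, 1321 at 6 h, 3425 at 12 h, 5358 at 16 h and 9765 at 24 h, against 159.9 at 2 h and 349 at 24 h untreated. It rose by 2.80 ± 0.51 (0.014), and it was among 5 called rises that already stood at least 2-fold above untreated cells at 2 h. Ceacam4, of the carcinoembryonic antigen family, rose by at least 3.01 ± 0.49 (0.00942), from below the floor at 2 h, 288 at 6 h, 818 at 12 h, 1263 at 16 h and 2160.0 at 24 h. Gstm1, a glutathione transferase, rose on 2 of 3 probe sets, by 3.21 ± 0.62 (0.0206) and at least 3.03 ± 0.57 (0.0171). On the first it was 92.3 at 2 h, 460.2 at 6 h, 1017 at 12 h, 2081 at 16 h and 3309.6 at 24 h. For Map4k1, Lgals1, Ceacam4 and Gstm1 the level still more than doubled between 12 and 24 h, by 1.15, 1.51, 1.40 and 1.70 on the log2 scale. Map4k1 on its first probe set, Map4k1 on its other and Ceacam4 lost the call only without butyrate 2 h (adjusted p = 0.105, 0.0766 and 0.125). Lgals1 stayed called without butyrate 6 and 12 h, aspirin 12, 16 and 24 h and untreated 2 and 24 h, with 0.0511 to 0.286 in the other 5 fits, the highest without butyrate 2 h. Gstm1 on its first probe set stayed called without butyrate 6 and 12 h and aspirin 12 h, with 0.0544 to 0.306 in the other 9 fits, the highest without butyrate 2 h. Gstm1 on its second stayed called without butyrate 6 and 12 h and aspirin 12, 16 and 24 h, with 0.0593 to 0.318 in the other 7 fits, the highest without butyrate 2 h.

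**Figure D2:**
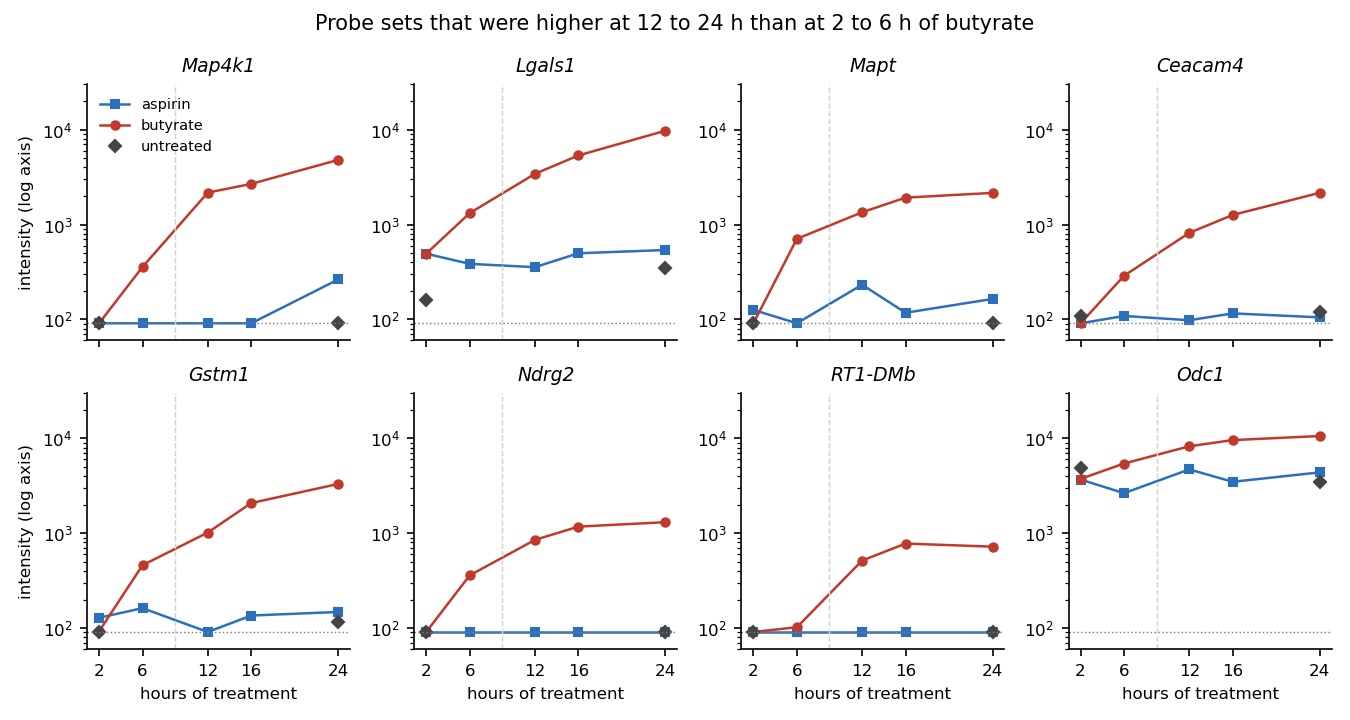
Intensity (log axis) against hours of treatment for 8 genes that were higher in late butyrate, each by its called probe set of largest change, with symbols and lines as in the plot of the falls; values under the floor are drawn at it. Lgals1 went from 494 at 2 h to 9765 at 24 h of butyrate and lay between 355 and 539 with aspirin.

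Many rises were those of dim genes. Of the 82 rising probe sets, 43 had at least 1 butyrate array at the floor, 17 had both early arrays there and 41 had 6 or more of the 12 arrays there. For the 61 falls the same counts were 3, 0 and 2. Values tied at the floor show no spread, so the errors of such rises are too small. With only probe sets above the floor on at least 7 of 12 arrays, an alternative added after the data were seen, 114 of 5000 were called, 46 of them higher (40.4%, against 57.3% in the full set). Centring each array on its median gave 134 with 47.0% higher.

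Genes of microtubules and of nerve cells were among the rises, some dim and some bright. Mapt, the microtubule-binding protein tau, was below the floor on both untreated arrays and rose on all 3 probe sets. On the dimmest of them it was below the floor at 2 h, 175 at 6 h, 571 at 12 h, 792 at 16 h and 1019 at 24 h, a rise of at least 2.61 ± 0.33 (adjusted p = 0.00205), and on the others it rose by at least 2.81 ± 0.66 (0.0488) and 2.52 ± 0.59 (0.0472). Map1lc3a, an LC3 protein of microtubules and autophagosomes, rose by 1.2 ± 0.28 (0.0425), with 2598 at 2 h, 4161 at 6 h, 5762 at 12 h, 8356 at 16 h and 8917 at 24 h. Both belong to a list of 19 tubulin and kinesin genes, of which these 2 rose (10.5%, against 1.23% of all genes), 0 fell and the median was 0.49. Map2, of the same family as Mapt, gave 2.08 and did not pass (0.0515). Nrgn, a calmodulin binder of neurons, rose by at least 1.41 ± 0.28 (0.0214), but not on its brighter probe set (1.55, 0.251). Of 45 neuronal genes 2 rose by their brightest probe set, Mapt and Cpe (4.44%, against 1.23% of all genes), and 0 fell (median 0.33). Mapt on its dimmest probe set stayed called whichever single array was left out. Mapt on the second stayed called without butyrate 6 h, with 0.0746 to 0.448 in the other 11 fits, the highest without butyrate 2 h. Mapt on the remaining probe set stayed called without butyrate 6 h, with 0.0563 to 0.397 in the other 11 fits, the highest without butyrate 2 h. Map1lc3a stayed called without butyrate 6 and 12 h and aspirin 12 h, with 0.0687 to 0.543 in the other 9 fits, the highest without butyrate 2 h. Nrgn stayed called without butyrate 12 h and aspirin 12, 16 and 24 h, with 0.0511 to 0.241 in the other 8 fits, the highest without butyrate 2 h.

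In vesicle traffic 3 of 81 genes rose (3.70%, against 1.23% of all genes) and 0 fell by their brightest probe set, with a median of 0.17. Dnm1, the dynamin that pinches vesicles off in neurons, was below the floor at 2 h, 395 at 6 h, 1361 at 12 h, 1225 at 16 h and 929.5 at 24 h and rose by at least 2.61 ± 0.48 (adjusted p = 0.0147). Rab3b, a GTPase of regulated secretion, rose on both probe sets, by 2.13 ± 0.45 (0.0286) and at least 1.70 ± 0.21 (0.00205). Atp6v1f, a subunit of the proton pump that acidifies vesicles, was bright throughout, at 6759.5 at 2 h, 7155 at 6 h, 10679 at 12 h, 12836 at 16 h and 12991 at 24 h, and rose by 0.80 ± 0.14 (0.014). In the lysosome list 0 of 24 were called by the brightest probe set, and 17 were higher (median 0.25), as were 1999 of all 3647 genes (median 0.05). The lysosome median was 0.35 late against early with aspirin. Psap, the precursor of the saposins, rose on 1 of 3 probe sets by 0.89 ± 0.19 (0.0303). Cpe, a carboxypeptidase that trims prohormones, gave 889 at 2 h, 1207 at 6 h, 2565 at 12 h, 3314 at 16 h and 3896 at 24 h and rose by 1.63 ± 0.26 (0.00942). Rab3b on its dimmer probe set stayed called whichever single array was left out. Rab3b on its brighter stayed called without butyrate 12 h and aspirin 12 and 24 h, with 0.0614 to 0.306 in the other 9 fits, the highest without butyrate 2 h. Dnm1 stayed called without butyrate 6 and 12 h and aspirin 12, 16 and 24 h, with 0.0511 to 0.0994 in the other 7 fits, the highest without butyrate 2 h. Atp6v1f was lost without butyrate 2, 16 and 24 h (0.146, 0.0723, 0.0626). Psap stayed called without butyrate 6 and 12 h and aspirin 12 and 24 h, with 0.0511 to 0.306 in the other 8 fits, the highest without butyrate 2 h. Cpe was lost without butyrate 2 and 16 h (0.125, 0.0525).

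Antigen presentation and immune mediators gave a mixed picture. RT1-DMb, a chain of the protein that loads peptides on MHC class II, rose on 2 of 3 probe sets. On the first it was below the floor at 2 h, 102 at 6 h, 515 at 12 h, 778 at 16 h and 722 at 24 h, and below the floor on both untreated arrays, a rise of at least 2.78 ± 0.25 (adjusted p = 0.00042). RT1-CE12, a class I heavy chain, gave 2865 at 2 h, 5434 at 6 h, 8878 at 12 h, 9850.4 at 16 h and 10062 at 24 h and rose by 1.28 ± 0.23 (0.014), but its probe set may also take up RNA of related class I genes. Of 22 genes of MHC antigen presentation, these 2 rose (9.09%, against 1.23% of all genes) and Psmb8 fell (4.55%, against 1.1%). The median was 0.27, and the class II chains RT1-Ba (−0.19) and RT1-Da (0.28) did not pass. The median of that list was 0.13 late against early with aspirin and 0.49 from 2 to 24 h without a drug. Ccl20, a chemokine that draws immature dendritic cells, rose by at least 1.64 ± 0.33 (0.0231), and Cx3cl1, for fractalkine, by at least 1.19 ± 0.22 (0.014). Both stayed under 400 on every late array. Mx1, an interferon-induced GTPase, rose by at least 1.52 ± 0.23 (0.00696). RT1-DMb on its first probe set stayed called whichever single array was left out. RT1-DMb on its second, Cx3cl1 and Mx1 lost the call only without butyrate 2 h (adjusted p = 0.0757, 0.149 and 0.0757). RT1-CE12 stayed called without butyrate 6 and 12 h and aspirin 2, 6, 12, 16 and 24 h, with 0.0524 to 0.145 in the other 5 fits, the highest without butyrate 2 h. Ccl20 stayed called without butyrate 6 and 12 h, aspirin 12, 16 and 24 h and untreated 2 and 24 h, with 0.0545 to 0.312 in the other 5 fits, the highest without butyrate 2 h.

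Several enzymes rose. Padi2, which turns arginine in proteins into citrulline, was below the floor at 2 h, 126 at 6 h, 749 at 12 h, 589.6 at 16 h and 697 at 24 h, and was below the floor on all 7 arrays without butyrate, a rise of at least 2.66 ± 0.24 (adjusted p = 0.00042). Its other, brighter probe set gave 1.38 and did not pass (0.106). Kyat1, a kynurenine aminotransferase, was below the floor at 2 h, 246 at 6 h, 727 at 12 h, 734 at 16 h and 657 at 24 h and rose by at least 2.24 ± 0.35 (0.00833). Calponin, Cnn1, an actin-binding protein of smooth muscle, rose by at least 2.08 ± 0.23 (0.000903), with below the floor at 2 and 6 h, 303 at 12 h, 400.0 at 16 h and 472 at 24 h. Padi2, Kyat1 and Cnn1 stayed called whichever single array was left out, as did 14 of the 143 probe sets in all, 11 higher and 3 lower. All 11, Padi2, Kyat1 and Cnn1 included, had values tied at the floor, which makes their errors too small and limits what staying called shows. Ndrg2, a growth-arrest gene, rose by at least 2.60 ± 0.46 (0.014). It was below the floor at 2 h, 359.7 at 6 h, 851 at 12 h, 1175 at 16 h and 1307 at 24 h. Of 16 kinase inhibitors and growth arrest genes it was the only called one (6.25%, against 1.23% of all genes higher). Odc1, the first enzyme of polyamine synthesis, gave 3743 at 2 h, 5438 at 6 h, 8263 at 12 h, 9606 at 16 h and 10598 at 24 h and rose by 1.07 ± 0.23 (0.0336) on 1 of 2 probe sets, while the other gave 1.46 (0.0736). Ndrg2 stayed called without butyrate 6 and 12 h and aspirin 6, 12, 16 and 24 h, with 0.0505 to 0.0936 in the other 6 fits, the highest without butyrate 2 h. Odc1 stayed called without butyrate 6 and 12 h, with 0.0522 to 0.454 in the other 10 fits, the highest without butyrate 2 h.

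Gch1, the first enzyme of tetrahydrobiopterin synthesis, gave 1723 at 2 h, 3832 at 6 h, 3771 at 12 h, 4635 at 16 h and 4309 at 24 h on its brightest probe set, against 580.3 at 2 h and 413 at 24 h untreated. Early butyrate differed from untreated by 2.39 (adjusted p = 0.0105) and late from early butyrate by 0.72 (0.416). Gchfr, which lets its end product feed back on Gch1, was 613 at 2 h, 1727 at 6 h, 3373 at 12 h, 4987 at 16 h and 5051 at 24 h, against 183 at 2 h and 321 at 24 h untreated. Its early butyrate arrays stood 2.09 above untreated (0.0568), and late against early it rose by 2.10 ± 0.46 (0.0336). Gchfr stayed called without butyrate 6 h and aspirin 12 h, with 0.0507 to 0.477 in the other 10 fits, the highest without butyrate 2 h.

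Other genes had moved by the early hours, with a late difference that did not pass. Egr1, an immediate-early transcription factor, was at 2654 at 2 h and 2583 at 24 h untreated and at 9976 at 2 h, 12519.9 at 6 h, 12488 at 12 h, 11818 at 16 h and 13948 at 24 h of butyrate. Its early butyrate arrays stood 2.09 above untreated (adjusted p = 0.0035), and late minus early was 0.19 ± 0.25 (0.83). Fst, for the activin binder follistatin, went from 5199 at 2 h and 4634 at 24 h untreated to 514 at 2 h, 408 at 6 h, 294 at 12 h, 367 at 16 h and 568 at 24 h (−3.42, 0.00231, then −0.22 ± 0.38, 0.892). Cpt1a, the gate of fatty acids into mitochondria, was 1031 at 2 h and 842 at 24 h untreated and 3040.2 at 2 h, 3436 at 6 h, 4168 at 12 h, 3299 at 16 h and 3577 at 24 h with butyrate (1.79, 0.00231, then 0.18 ± 0.20, 0.767). The transcription factor Myc, which drives growth, had lost most of its signal at 2 h, from 3789.8 at 2 h and 3821 at 24 h untreated to 1002 at 2 h, 684 at 6 h, 556 at 12 h, 388 at 16 h and 367 at 24 h. Its early difference was −2.20 (0.00231) and its late minus early difference −0.95 ± 0.24 (0.0634). Prnp, for the prion protein, stood 4.2 above untreated early (0.00545) and a further 1.0 ± 0.56 late (0.463). A late difference that misses the threshold does not show that these genes stood still. Early and late butyrate were both set against the same 2 untreated arrays, so these values are not independent. Early butyrate differed from untreated at 132 probe sets (2.16%) with 104 higher (1.7%) and 28 lower (0.458%), and late butyrate at 1337 (21.9%), with 821 higher (13.4%) and 516 lower (8.43%). The actin control Actb gave −0.07 ± 0.09 (0.814).

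Most called changes took their largest step between 6 and 12 h. That was so for 59 of 82 rises (72.0%) and 44 of 61 falls (72.1%), against 29.1% and 36.0% of all tested probe sets that lay higher or lower late. The early and late groups meet at that step, so the choice of groups favours it, and the counts are a description. The step from 2 to 6 h was the largest for 21 rises and 10 falls, that from 12 to 16 h for 2 and 3, and that from 16 to 24 h for 0 and 4. The last included Mcm5, Dut and Cdc20. Over all 5 hours 35 rises (42.7%) and 38 falls (62.3%) went only one way, as did 9.99 and 10.1% of all tested. The calls were made on late arrays apart from early ones, which favours such courses, and the 17 rises with both early arrays tied at the floor could not count, so these shares too are a description. A further 2-fold change from 12 to 24 h was seen at 9 rises (11%, all tested 5.48%) and 13 falls (21.3%, all tested 7.80%). Of the falls these included Il33, Pcsk6, Mcm5, all 3 probe sets of Mcm6, Dut, Psmb8, Cdc20 and 1 probe set of Pcna.

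**Figure D3:**
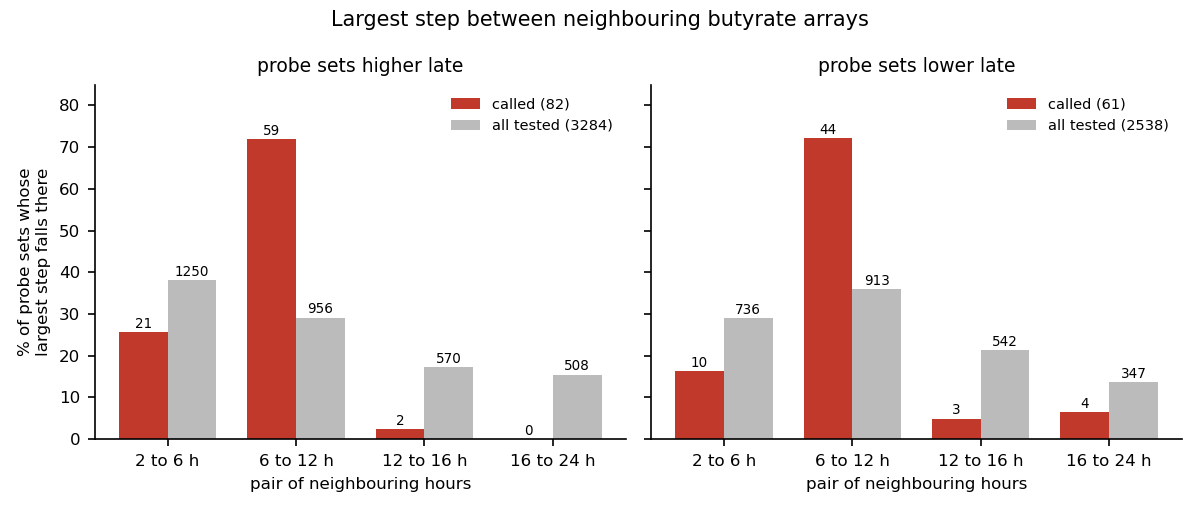
Share of probe sets (percent, with the number above each bar) whose largest step in the direction of their change fell between each pair of neighbouring butyrate hours, for called probe sets and for all tested probe sets of the same sign. The step from 6 to 12 h took 72.0% of called rises and 72.1% of called falls, against 29.1% and 36.0% of all tested.

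The hour from which a called probe set stayed at least 2-fold away from the mean of both untreated arrays gives another order. It was 2 h for 5 rises and 0 falls, 6 h for 22 and 11, 12 h for 38 and 36, 16 h for 5 and 5, and 24 h for 2 and 2. The remaining 10 rises and 7 falls never stayed 2-fold away. Of all tested probe sets that lay higher late, the shares from 2, 6, 12, 16 and 24 h were 5.27, 7.49, 4.45, 3.84 and 6.12%. Of those that lay lower late they were 1.02, 5.08, 4.29, 4.65 and 6.54%. The calls were made on late arrays apart from early ones, which favours 12 h, so these counts too are a description. From 6 h on, the rises included Mapt on 2 of 3 probe sets (12 h on the dimmest), Ndrg2, Dnm1 and Spn, for the leukocyte sialoprotein CD43, and the falls included Ptpmt1, Fosl1 and Gnl3, for the nucleolar protein nucleostemin. Late to reach a lasting 2-fold difference were Hspd1 on 1 probe set (16 h, against 12 h on its other) and Cdk4 (24 h). Cdk4 had its largest step from 2 to 6 h, so its late hour goes with a small change and not with a late start. Txnip, an inhibitor of thioredoxin, chosen here after its values were seen, had its steepest rise between 12 and 24 h, with 221 at 2 h, 267 at 6 h, 570.3 at 12 h, 1642 at 16 h and 4914 at 24 h, but its difference of 2.78 ± 0.73 did not pass (0.0723).

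The medians of gene lists took different courses against untreated cells. The median of the cell cycle list was −0.11 at 2 h, −0.32 at 6 h, −0.58 at 12 h, −1.04 at 16 h and −1.49 at 24 h. Heat shock genes and chaperones gave −0.12 at 2 h, −0.21 at 6 h, −0.50 at 12 h, −0.50 at 16 h and −0.63 at 24 h, and amino acid and unfolded protein response genes 0.19 at 2 h, −0.02 at 6 h, −0.16 at 12 h, −0.48 at 16 h and −0.53 at 24 h. The cell cycle median went down at each hour, and the heat shock median was as low at 12 as at 16 h. Late minus early, 1 of 24 heat shock genes fell (Hspd1) and 1 rose (Hspa2, near the floor), with a median of −0.44. Each is 4.17% of the list, against 1.1% of all genes lower and 1.23% higher. Genes of cholesterol synthesis had 0 of 18 called, 16 lower (1487 of all 3647 genes were) and a median of −0.41. The median of that list was 0.58 late against early with aspirin and 0.71 from 2 to 24 h without a drug. Ribosome assembly and polyamine genes had 0 of 29 called and a median of −0.28 (aspirin −0.29). Fatty acid oxidation had 0 of 36 called and a median of 0.15, and its median against untreated was already 0.47 at 2 h. Intestinal differentiation had 0 of 35 called and a median of 0.00, and apoptosis 0 of 20 and 0.00. With 1.23% of all genes called higher and 1.1% lower, 0 calls in lists of these sizes says little.

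**Figure D4:**
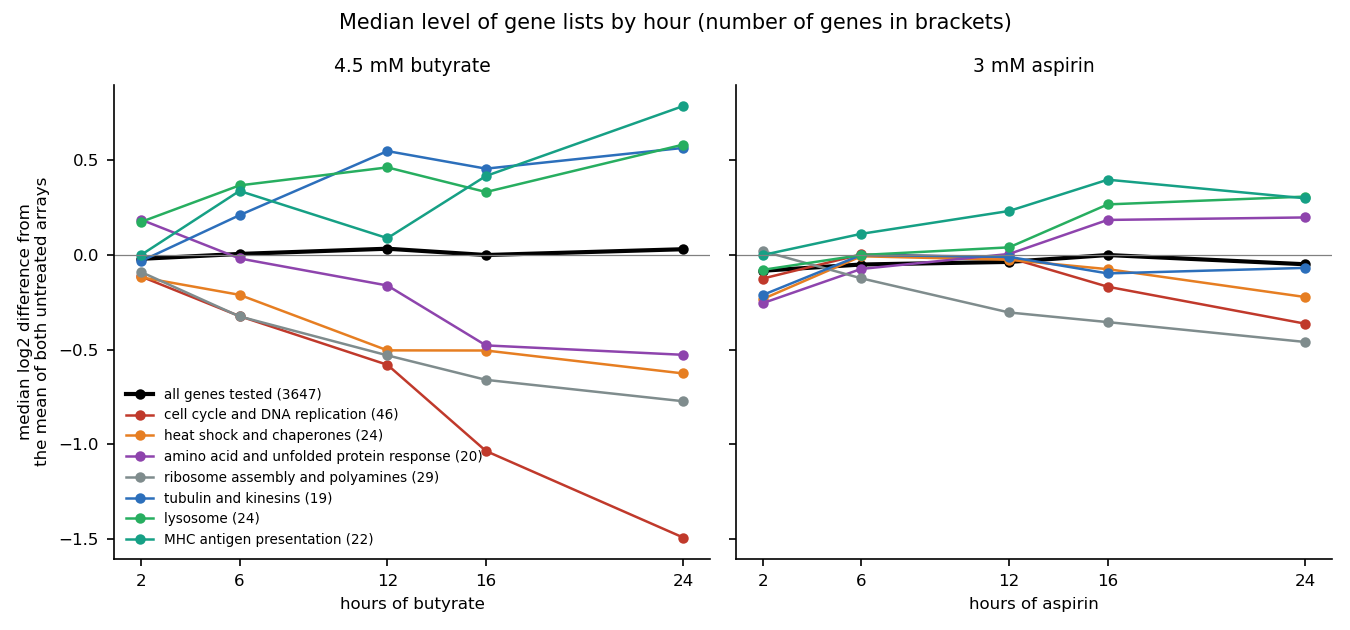
Median log2 difference of 8 gene sets from the mean of both untreated arrays, against hours of butyrate (left) and of aspirin (right), with the number of genes in brackets; each point is 1 array. With butyrate the cell cycle list went from −0.11 at 2 h to −1.49 at 24 h, and with aspirin from −0.12 to −0.36, while the median of all genes stayed within 0.09 of 0.

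Hours in culture passed with aspirin and without a drug too. For the 61 falls the median change was −1.37 with butyrate and −0.25 with aspirin, where 46 were lower late as well, and 0.01 from 2 to 24 h without a drug (1 array each). For the 82 rises the medians were 1.60, 0.00 and 0.00, with 40 higher late with aspirin, 12 lower and 30 at 0. In all 30 the 5 aspirin arrays were at the floor, so that the aspirin median of the rises is largely set by the floor. Among all tested probe sets, 1301 of the 2538 that lay lower late with butyrate were also lower late with aspirin. Of the 3284 that lay higher, 1973 were also higher late with aspirin. Mcm5 with aspirin went from 1478 at 2 h to 416 at 24 h (−1.44, adjusted p = 0.373), and the test of the difference between its changes did not pass (−1.16, 0.686). The change with butyrate differed from that with aspirin at 20 probe sets (0.327%; 653 at an unadjusted p, or 10.7%), 13 higher (0.212%) and 7 lower (0.114%), 18 of which name a gene, and 15 of the 20 were also called with butyrate. Il33 (−3.28, 0.0285), Psat1 (−2.53, 0.0285), Tspan8 (−1.95, 0.0406) and Hspd1 (−1.42, 0.0285) were among them. Psat1 and Hspd1 passed on only 1 of their probe sets each. The cell cycle list had 0 of 46 called in that test by the brightest probe set. Only 9 of all 3647 genes were called there, so a count of 0 says little. The median difference of the list was −0.63, against −0.004 over all genes. The count of 20 was 0 without butyrate 2 h or aspirin 16 h, 9 and 5 without butyrate 16 and 24 h, 38 and 78 without butyrate 12 and 6 h, 5 and 9 without aspirin 2 and 6 h, and 3 and 4 without aspirin 12 and 24 h. With each hour as a block it was 0 (759 at an unadjusted p under 0.05).

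**Figure D5:**
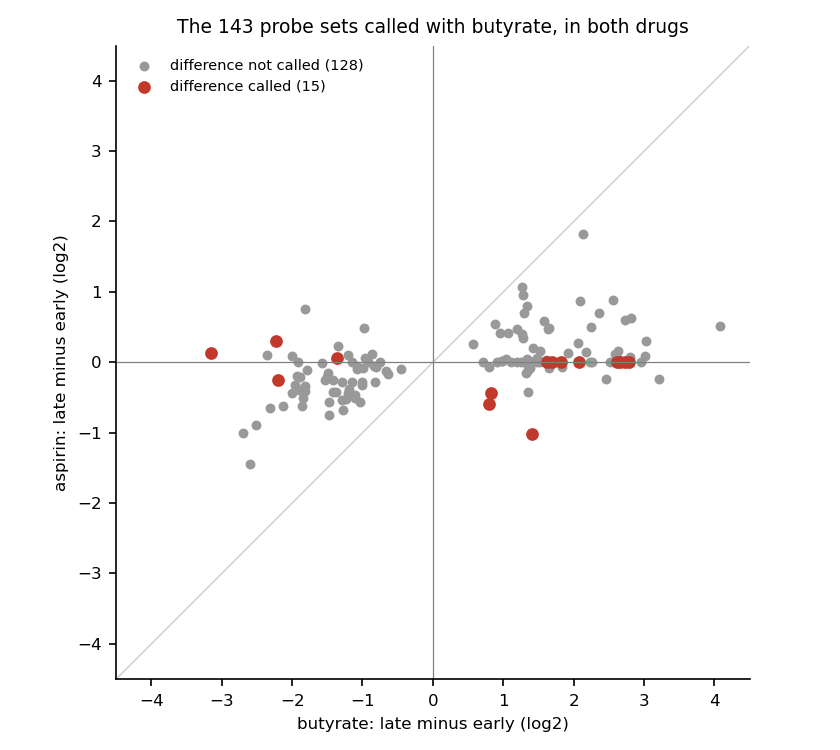
Late minus early change (log2) with butyrate (x axis) and with aspirin (y axis) for the 143 probe sets called with butyrate; the 15 whose 2 changes also differed by test are in colour, and the grey diagonal marks equal change. Falls had a median of −1.37 with butyrate and −0.25 with aspirin, and rises of 1.60 and 0.00; 30 rises lie at 0 on the y axis because all 5 aspirin arrays were at the floor.

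The number of calls rests on which arrays were used. Fitted on the 5 butyrate arrays alone, with 3 residual degrees of freedom, 0 probe sets were called (943 at an unadjusted p under 0.05). Leaving out 1 array gave 23 calls without butyrate 2 h, 45 and 49 without butyrate 16 and 24 h, 211 and 311 without butyrate 12 and 6 h, 87 and 86 without untreated 2 and 24 h, and 68, 71, 122, 83 and 110 without aspirin 2, 6, 12, 16 and 24 h. Of the 143, 16 were still called without butyrate 2 h and 119 without butyrate 6 h. A slope over log2 hours called 550 probe sets, 131 of the 143 among them.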

How the data were processed

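RNA of CC531 cells was measured on 12 Affymetrix rat genome arrays. The authors deposited a linear intensity per probe set in the series' value table, which can be negative. No step that made these values is given in the sources used here; after the lowest and highest 2% were left out, every array had a mean of 1000, as computed from the table. Precision is limited by how few arrays there are.

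The 59 control probe sets were left out. Values were raised to a floor of 90.91, the absolute value of the 10th percentile of all signed values, which was negative. They were put on the log2 scale, and probe sets whose mean lay under the 30th percentile were dropped, leaving 6118 of 8740. limma 3.58.1 (R 4.3.3) was fitted to all 12 arrays in 5 groups (7 residual degrees of freedom, variance trend), with p-values adjusted by the Benjamini-Hochberg method over all tested probe sets and a threshold of 0.05. Changes are late minus early differences of log2 means. A gene was represented in its lists by its brightest probe set. A late minus early change with butyrate that rests on floor values is given as at least its size. The scripts were tested on simulated data.

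Probe sets were named through the platform annotation, in which 7006 name 1 gene, 308 several and 1426 none. Genes named come from a rule: the 15 largest called rises and 15 largest called falls with late arrays on one side of both early ones, from each list as many as 4 that were called, and a set of 21 genes that includes Myc, Egr1, Fst, Cpt1a, Gch1, Prnp, Odc1 and Actb. Any other gene was chosen after its values were seen. The members and lists were chosen with earlier results of these data known. Alternatives were other floors, filters, scalings, arrays left out, a fit on fewer arrays, a slope over log2 hours and hour as a block. Not every called gene is reported here.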

Additional observations from a re-analysis of the deposited data

Results flagged for a closer look

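The change with butyrate differed by test from the change with aspirin for 17 genes on 18 probe sets. Each value is the butyrate change minus the aspirin change (log2, limma, adjusted p under 0.05). The difference was negative for Cyp51, which makes cholesterol precursors (−3.32), Il33 (−3.28), the kinase Mapkapk3 (−2.63) and Psat1 (−2.53). It was also negative for the sugar phosphate mutase Pgm1 (−2.28), Tspan8 (−1.95) and Hspd1 (−1.42). It was positive for Ap2s1, of the clathrin adaptor, on both probe sets (1.25 and 1.39), Creg1 (1.63) and Rab3b (1.70). Positive too were the purine enzyme Xdh (1.82), the lysosomal membrane protein Lamp1 (1.84), Cnn1 (2.08) and the phospholipase Plcb2 (2.43). The largest positive ones were those of Mapt (2.61), Padi2 (2.66) and RT1-DMb (2.78). On these probe sets the change passed with neither drug for Cyp51, Mapkapk3, Pgm1 and Lamp1. Their changes were −1.44, −0.98, −1.22 and 0.90 with butyrate and 1.89, 1.65, 1.06 and −0.94 with aspirin. On 8 of the 20 probe sets with such a difference all 5 aspirin arrays were at the floor, so the aspirin change was 0 by construction. Named among these are Creg1, Rab3b, Xdh, Cnn1, Mapt, Padi2 and RT1-DMb, for which 1 or both early butyrate arrays were at the floor too, and their differences are neither exact sizes nor bounds. Some arrays were also at the floor for Pgm1, Lamp1 and Plcb2. Several of the genes named here did not pass on another probe set. Rab3b on its brighter one rose with aspirin too (1.82), and its difference was 0.31 (adjusted p = 0.92). For Hspd1 another gave −0.92 (0.265), for Psat1 −2.46 (0.192), for Mapkapk3 −1.46 (0.0901), for RT1-DMb 1.60 (0.11) and for Mapt 2.52 (0.285).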

How the results depend on the processing

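The count of 143 for late against early butyrate was 64 with a higher floor and 64 with a lower one. These floors were the absolute values of the 5th and of the 25th percentile of all signed values, in that order. The count was 60 with no filter on dim probe sets and 89 with no variance trend. On the butyrate arrays alone it was 0, and with a slope over log2 hours it was 550. It was 162 with quantile normalization, 134 with median centring, 115 with probe sets above the floor on every array of the contrast and 114 with those above it on at least 7 of 12 arrays, the last chosen after seeing the data. Leaving out 1 array gave 23 to 311. For aspirin the 6 became 0 and 27 with the 5th and 25th percentile floors, 2 with quantile normalization, 19 with probe sets above the floor on every array of the contrast, 2 with no variance trend, 0 on the aspirin arrays alone (limma) and 101 with a slope, and 0 to 19 without 1 array. For the difference between the drugs the 20 became 0 with the 25th percentile floor, 11 with median centring, 6 and 5 with the filters on arrays above the floor, 13 with no variance trend, 106 with a slope, 0 with hour as a block, and 0 to 78 without 1 array. For late against early hours within a drug, which share no hour, no blocked fit could be made; the drugs share all 5 hours, and with hour as a block none of the 20 differences was called (limma, 759 at an unadjusted p under 0.05). Among the named genes, 2499 values kept their side of the threshold, 787 lost the threshold and 33 passed it. The 2499 include values that stayed uncalled, whatever their sign. A change of sign with a call in either fit was seen in 0. The causes were not tested. Without separate cultures at one hour, the spread between cultures is not measured here, and values near the floor limit the rises more than the falls.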
